A study of Mus musculus with 8 samples.

Results

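The genes described here copy DNA and mend it during S phase. They are 37 genes given by symbol, of 23284 genes in the count tables, and were grouped by role into origin licensing and helicase (11 genes), polymerases and primase (6), clamp and clamp loader (4), single-strand binding and fragment joining (3), nucleotide supply (3), S-phase entry and control (4), chromatin assembly (2), and repair and chromosome structure (4). All 37 had a row in each table and passed the filter on low counts; the lowest count of any of them in any library was 123.

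RNA came from peripheral mouse retina at postnatal day 12, in 2 groups of 4 libraries. In the Rb-null group, Cre recombinase under the Pax6 alpha enhancer acts on floxed alleles (lox/lox) of the Rb gene. The TET-MYCN group carries the same Cre, a Rosa26 LSL-RTTA transactivator that Cre switches on, and a TRE-MYCN transgene. The series title and the genotype label give this group the Rb deletion too, whereas the design text does not repeat the floxed allele, and whether doxycycline was given is not said. The Pax6 alpha enhancer is active in the peripheral retina, so Cre need not have acted in every cell of the dissected tissue. The comparison asks what MYCN overexpression adds to retina that already lacks Rb.

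Gene counts ran from 14872131 to 22873979 per library. The labels do not say that libraries came from separate animals, so p-values reflect only how these libraries scatter, and that scatter may be technical. Neither targeted gene separated the groups. Rb1 had 161 ± 21.9 CPM (counts scaled to a common library size, with TMM factors; mean ± SD) in the Rb-null and 154 ± 23.6 CPM in the TET-MYCN libraries, and mouse Mycn 231 ± 95.0 and 242 ± 37.6 CPM (n = 4 each; adjusted p = 0.883 and 0.934, edgeR). Counts over a whole gene need not show the loss of a floxed exon, and reads of the transgene need not map to mouse Mycn, so these values check the labels little. Directions below rest on the labels. All 11 rod photoreceptor markers were detected in every library, as the labelled tissue should have them. Rb-null 3 stood apart for the genes described here, and each role is described with and without it.

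Before S phase, ORC, Cdc6 and Cdt1 load the MCM2-7 helicase onto origins. Cdc45 and GINS then activate it, primase and the polymerases copy the strands, and the PCNA clamp, set in place by replication factor C, holds the polymerases on DNA. Most of these genes are classic E2F targets: the retinoblastoma protein binds E2F and keeps them silent in resting cells, and without it they are no longer held back in this way. In normal mouse retina, progenitor division in the periphery has largely ended by this age.

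Many promoters of these genes carry the letters of the short site that E2F factors read, and a few are shown here. As most of the genes are classic E2F targets, a high share of matches was likely in advance and is not independent evidence. RefSeq windows (GRCm38.p6, from 250 bases before to 50 bases after each start) were found for 30 of the 37 genes. The site was searched as TTNNCGC with each N either C or G, on both strands, and a gene counted once however many matches it held. Of the 30 genes, 21 (70.0%) held a match, against 10.9% of all 27025 genes in the table. Among other replication and repair genes the share was 55.1% (38 of 69), and among mitosis genes 12.5% (3 of 24). The cell cycle homology element of mitosis genes was searched as TTTGAA or TTCGAA. It was in 5 of 30 genes here (16.7%), in 15.9% of the other replication and repair genes and in 21.7% of all genes. Mitosis genes had 75.0%, and as the element is one of mitosis genes, this share too was likely in advance. A CCAAT box was in 60.0% of these promoters and 41.1% of all, and the MYC-type E-box CACGTG in 13.3% and 8.09%. A match is a stretch of letters, not a shown binding site. No E2F-type match was found for Mcm2, Mcm10, Pola2, Pcna, Rfc5, Tk1, Ccne1, Slbp and Smc2, which says only that these letters are not in their windows.

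**Figure D1:**
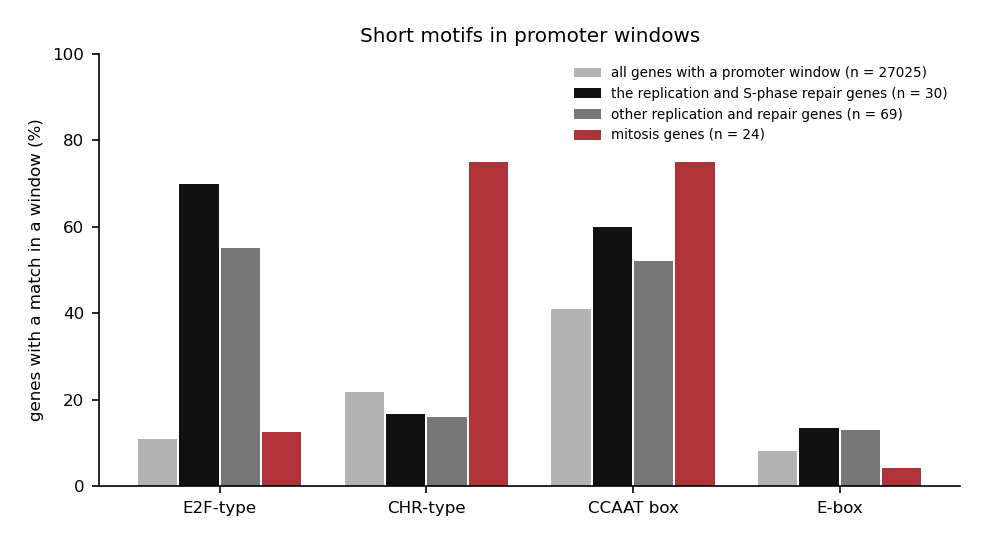
Percentage of genes (vertical axis) with at least 1 match to each of 4 short motifs (horizontal axis) in a RefSeq promoter window. Bars are all genes in the table, the replication and S-phase repair genes, other replication and repair genes, and mitosis genes. The E2F-type motif is in 70.0% of the replication and S-phase repair genes and 12.5% of mitosis genes, and the CHR-type motif in 16.7% and 75.0%.

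The 250 bases before the start are printed for Mcm6, the licensing gene with the smallest p below, and Cdc6, the licensing gene with a difference nearest 0. Whether matches go with the differences between the groups was not tested. Capitals mark E2F-type matches, and where matches on the opposite strands overlap the capitals run on. Both are given 5′ to 3′ on the strand of the gene, Mcm6 at chr1:128359706-128359955 (minus strand) and Cdc6 at chr11:98907901-98908150 (plus strand).
Mcm6: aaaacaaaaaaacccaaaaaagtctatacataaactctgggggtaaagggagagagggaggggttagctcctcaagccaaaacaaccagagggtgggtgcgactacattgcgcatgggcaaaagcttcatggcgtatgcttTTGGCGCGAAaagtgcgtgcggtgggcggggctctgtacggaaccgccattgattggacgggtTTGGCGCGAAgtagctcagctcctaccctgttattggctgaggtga
Cdc6: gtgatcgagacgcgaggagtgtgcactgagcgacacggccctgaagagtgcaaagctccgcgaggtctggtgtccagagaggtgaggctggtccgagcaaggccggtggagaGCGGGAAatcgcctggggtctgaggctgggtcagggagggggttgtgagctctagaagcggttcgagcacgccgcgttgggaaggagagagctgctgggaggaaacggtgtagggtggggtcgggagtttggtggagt

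Shorter windows show the same kind of site in a gene of each other role, with each match in capitals and the strand in brackets. They lie at chr10:128015190-128015216 (plus) for Prim1, chr5:151651201-151651227 (minus) for Rfc3, chr19:10203939-10203965 (minus) for Fen1, chr7:102441618-102441644 (plus) for Rrm1, chr1:191575535-191575561 (minus) for Dtl, chr16:93883917-93883943 (plus) for Chaf1b and chr17:87975056-87975082 (plus) for Msh6.
Prim1: gcctgtcttgTTCCCGCcaattctcgt
Rfc3: gtcgcacgctTTCGCGCtcGCGGGAAa
Fen1: caggaggctgTTCGCGCctggcagatc
Rrm1: ggagaactcgTTCCCGCcaggtccgct
Dtl: tgacgtcagtTTGGCGCggagtttggc
Chaf1b: cctgcggcgcGCGGGAAgctgcgggct
Msh6: cctcccgactTTCCCGCcagcggcggc

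Between the groups, none of the 37 genes passed the test at an adjusted p under 0.05 (quasi-likelihood test of edgeR, adjusted by Benjamini-Hochberg over the 15106 genes fitted), where 9 genes in all (0.0596%) passed. The count over all genes was 0 or 1 without Rb-null 1, 2, 3 or 4 or TET-MYCN 1 or 4, 132 without TET-MYCN 2, 230 without TET-MYCN 3 and 530 with DESeq2, and 0 of the 37 passed in any of these. At an unadjusted p under 0.05, 8 of the 37 were higher in the TET-MYCN libraries, against 8.06% of all genes tested, and 0 were lower. These were Mcm3, Mcm5, Mcm6, Mcm10, Rfc5, Tk1, Chaf1b and Msh6. DESeq2 and limma-voom also called 0 of the 37. With them 8 and 9 were higher at an unadjusted p under 0.05, against 8.41% and 7.43% of all genes tested. The log2 fold changes (TET-MYCN minus Rb-null) were small and mostly positive: 36 of 37 were above 0, against 52.2% of all genes, with a median of 0.26 against 0.01 over all genes and a range of -0.07 to 0.58. These genes vary together across libraries, so the count of signs is not 37 separate observations. In 2 genes, Mcm6 and Msh6, all 4 TET-MYCN libraries lay above all 4 Rb-null libraries, as did 4.36% of all genes tested. More cycling cells with TET-MYCN and more RNA of these genes per cell cannot be told apart in bulk tissue.

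The size of the difference rested in large part on Rb-null 3. That library was the lowest of all 8 libraries for 35 of the 37 genes, against 19.5% of all genes tested, and lay below every TET-MYCN library for all 37. The exceptions were Mcm2 and Msh6, for which Rb-null 4 was slightly lower still. Rb-null 2, in contrast, was the highest Rb-null library for 34 of the 37, exceeded the lowest TET-MYCN library for 35, and was the highest of all 8 for Mcm4, Mcm7, Cdc6, Ccne2 and Dtl. Without Rb-null 3 the median log2 fold change was 0.15, 29 of 37 were positive and 2 had an unadjusted p under 0.05. Leaving out other libraries moved the last count to 16 without Rb-null 2, 0 without Rb-null 4, 4 without TET-MYCN 1 and 1 without TET-MYCN 4, and 29 of 37 were positive without TET-MYCN 3. The share of all genes tested that were higher at an unadjusted p under 0.05 was 5.22% without Rb-null 3, 8.94% without Rb-null 2, 5.56% without Rb-null 4, 5.77% without TET-MYCN 1 and 5.89% without TET-MYCN 4. Groups that did not overlap are more frequent with fewer libraries. They numbered 8 of 37 without Rb-null 2 (7.73% of all genes), 6 without TET-MYCN 2 (8.12%), 4 without TET-MYCN 3 (11.9%), 1 without Rb-null 4 (5.40%) and 1 without TET-MYCN 1 (4.79%). Mcm6 was among them in each of these fits.

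**Figure D2:**
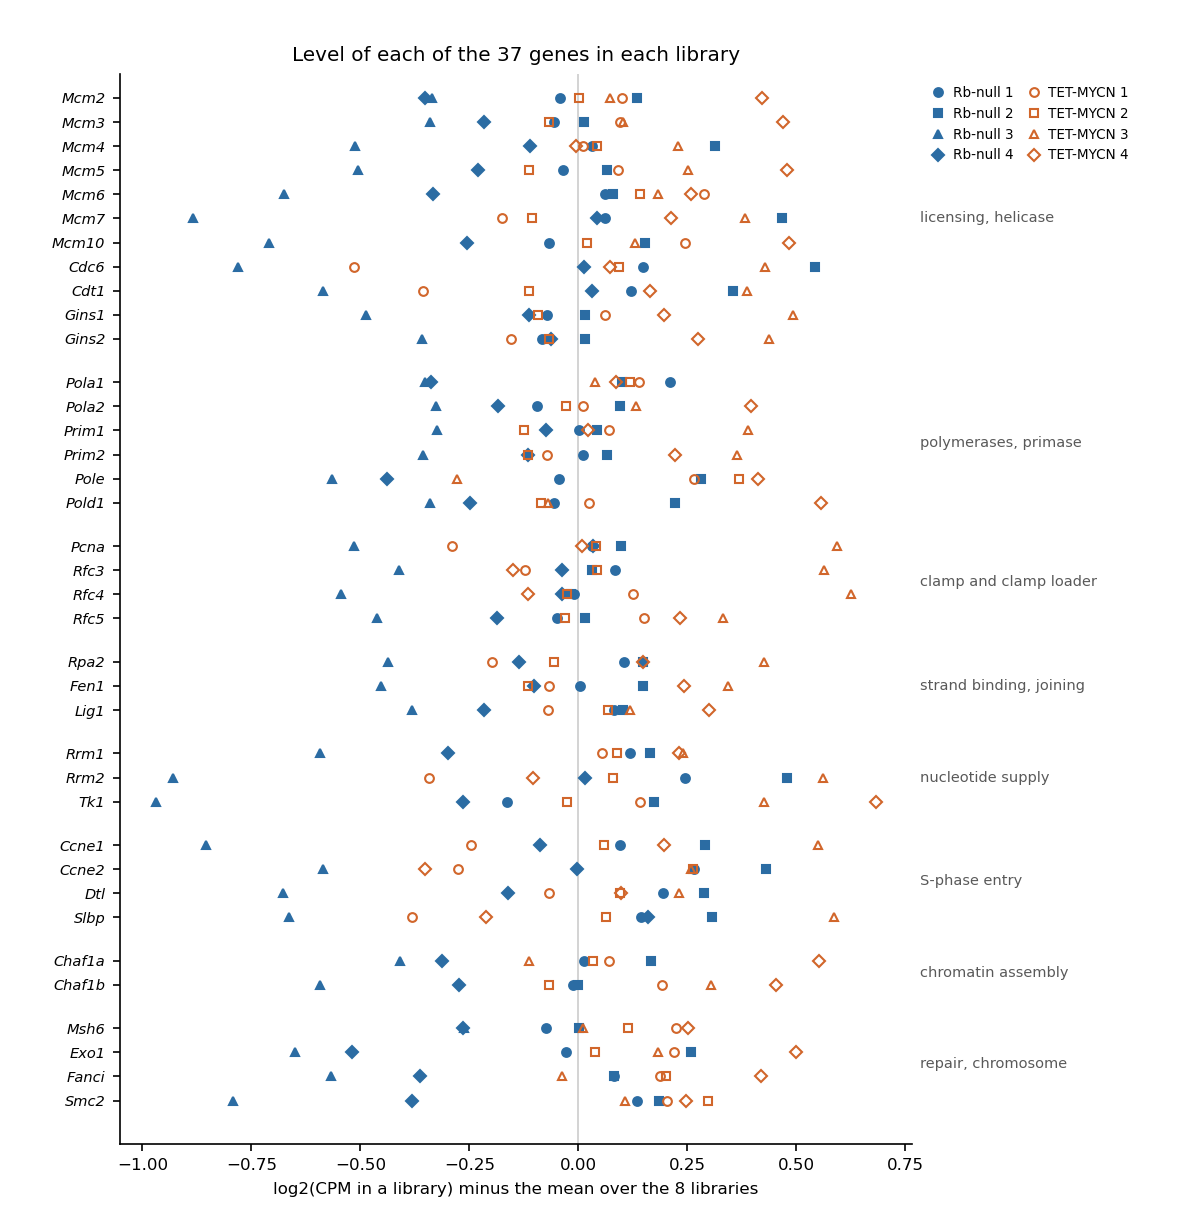
Level of each of the 37 genes (vertical axis, grouped by role) in each library, as log2 CPM minus the gene's mean over the 8 libraries (horizontal axis). Filled blue symbols are Rb-null libraries and open orange symbols TET-MYCN libraries. The filled triangle, Rb-null 3, is the lowest point in 35 of 37 rows.

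Cell type markers differed between the same libraries. The 11 rod markers summed to 4244 to 19149 CPM across the Rb-null libraries, against 3012 to 6971 CPM across the TET-MYCN libraries, with Rb-null 3 highest of all. The 9 retinal progenitor markers, all detected in every library, summed to 99.8 to 226 CPM in the Rb-null libraries, lowest in Rb-null 3, and 242 to 409.9 CPM with TET-MYCN. The 12 lens markers summed to 25.4 to 581 CPM and 13.3 to 57.5 CPM, again highest in Rb-null 3, and only Lim2 of them had a count of 0 in some library. In the other 9 marker lists the median log2 fold change was -0.87 for cones, -1.07 for bipolar cells, 0.09 for amacrine cells, 1.26 for horizontal cells, -0.58 for ganglion cells, -0.62 for Müller glia, 0.03 for microglia and macrophages, -0.24 for vessels and 1.74 for ciliary and pigment epithelium. Among all marker genes tested the macrophage gene Mmp12 alone passed the test (6.56 ± 0.87, adjusted p = 0.0348). The 37 genes together summed to 5077, 5627, 3327 and 4467 CPM across Rb-null 1 to 4, against 4702, 4984, 6080 and 5603 CPM across TET-MYCN 1 to 4. Their lowest library was thus the one richest in rod and lens transcripts and poorest in progenitor transcripts. Rb-null 2, the next richest in lens transcripts (309 CPM), had the highest sum of the 37 genes in its group. Leaving out Rb-null 2 and 3 thus drops the Rb-null libraries with the highest and the lowest sum. In a fit without the lens-rich libraries Rb-null 2 and 3, chosen after seeing the data, the median of the 37 was 0.21 with 32 positive, and 0 passed the test. In that fit 3 of the 37 were higher at an unadjusted p under 0.05, against 4.12% of all genes, and 8 had groups that did not overlap, against 8.71%. The part of cell makeup in the difference was not tested.

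**Figure D3:**
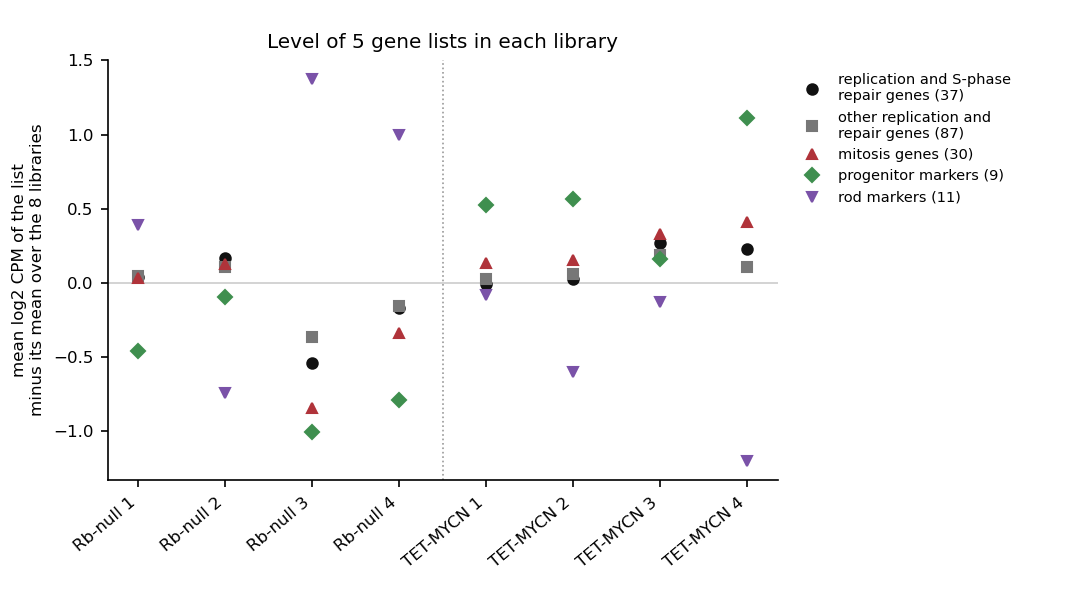
Mean log2 CPM of 5 gene lists in each library, minus each list's mean over the 8 libraries (vertical axis), for Rb-null and TET-MYCN libraries 1 to 4 (horizontal axis, groups parted by the dotted line). In Rb-null 3 the replication, mitosis and progenitor lists are at their lowest and the rod markers at their highest.

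Among the licensing and helicase genes all 11 had positive log2 fold changes, with a median of 0.29, and 0 passed the test. Mcm6, a subunit of the helicase ring, had 277, 280.0, 166 and 210.4 CPM across Rb-null 1 to 4, against 323, 292, 301 and 317 CPM across TET-MYCN 1 to 4. The TET-MYCN values lay close together above the Rb-null values, and Rb-null 1 and 2 came near them (log2 fold change 0.40 ± 0.16, SE; adjusted p = 0.276). Mcm3, another ring subunit, had 185, 194, 152 and 165 CPM across Rb-null 1 to 4, against 205, 183, 206 and 266 CPM across TET-MYCN 1 to 4. Only TET-MYCN 4 stood clear of the rest, and Rb-null 1 and 2 were above TET-MYCN 2 (0.31 ± 0.13, adjusted p = 0.305). Cdc6, the loader of the helicase, had 88.2, 116, 46.3 and 80.4 CPM across Rb-null 1 to 4, against 55.7, 85.0, 107 and 83.8 CPM across TET-MYCN 1 to 4. The ranges coincided, with the highest value in Rb-null 2 and the lowest in Rb-null 3, and the difference was 0.0028 ± 0.27 (adjusted p = 0.997). Without Rb-null 3 the values were 0.27 for Mcm6, 0.25 for Mcm3 and -0.19 for Cdc6, 7 of the 11 were positive and their median was 0.23.

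The other 8 licensing genes ran from 0.03 for Cdt1, which brings the helicase to origins with Cdc6, to 0.42 for Mcm10, which helps activate it, with SE of 0.14 to 0.25 and adjusted p of 0.308 to 0.968. Mcm5 and Mcm2 were at 0.35 and 0.29, and the GINS subunits Gins1 and Gins2 at 0.33 and 0.26. Mcm4 and Mcm7, which share the ring with Mcm6, had 0.11 and 0.10, and without Rb-null 3 -0.017 and -0.11. In that fit the other 6 were 0.23 for Mcm2, 0.25 for Mcm5, 0.28 for Mcm10, -0.13 for Cdt1, 0.24 for Gins1 and 0.19 for Gins2. Whether ring subunits differed from each other in their difference was not tested.

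Levels of the ring subunits kept much of their order. Scaled to transcript length, Mcm7 was the highest of Mcm2 to Mcm7 in all 8 libraries and Mcm2 the next. In the Rb-null libraries Mcm7 had 112 ± 38.7 CPM per kb and Mcm2 65.7 ± 10.9, followed by Mcm4, Mcm3, Mcm6 and Mcm5 at 58.1 ± 13.4, 57.3 ± 6.26, 53.6 ± 12.7 and 48.9 ± 8.22 (SD, n = 4). The SD ranges of the last 4 overlapped, though Mcm3 was above Mcm5 in every library. In the TET-MYCN libraries Mcm7 had 119.7 ± 22.1 and Mcm2 80.5 ± 11.0 CPM per kb, then Mcm3 70.9 ± 11.7, Mcm6 70.8 ± 3.29, Mcm4 62.8 ± 4.85 and Mcm5 62.5 ± 10.9. Lengths came from another build than the counts, so these levels are approximate.

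**Figure D4:**
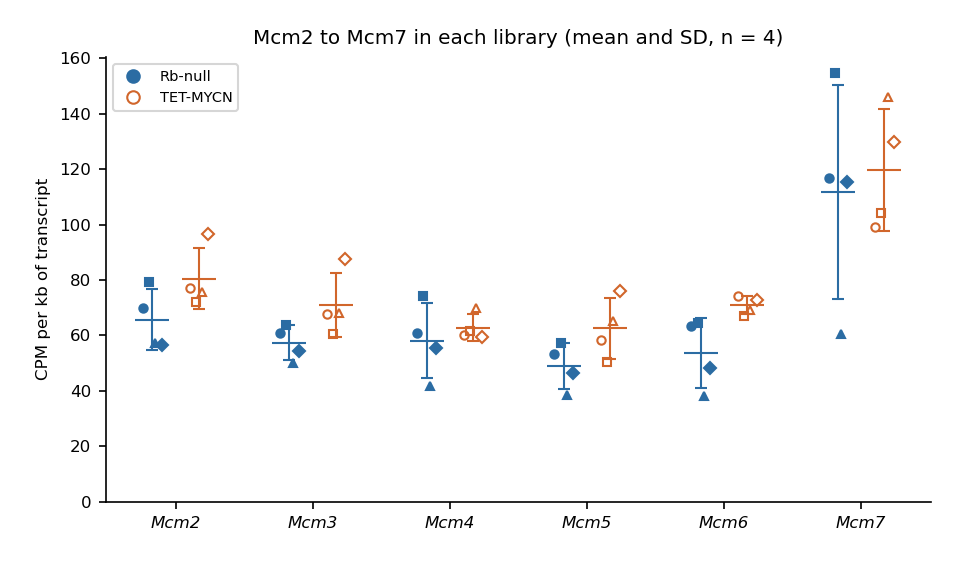
CPM per kb of transcript (vertical axis) of Mcm2 to Mcm7 (horizontal axis) in each library, filled for Rb-null and open for TET-MYCN, with the mean and SD of 4 libraries. Circle, square, triangle and diamond are libraries 1, 2, 3 and 4. Mcm7 is highest in all 8 libraries, and the 4 TET-MYCN values of Mcm6 lie above its Rb-null values.

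The 6 polymerase and primase genes were all positive, from 0.17 to 0.37, and none passed the test or had an unadjusted p under 0.05. Pola2, the regulatory subunit of polymerase alpha, had 68.9, 78.7, 58.8 and 64.9 CPM across Rb-null 1 to 4, against 74.2, 72.2, 80.8 and 96.9 CPM across TET-MYCN 1 to 4. Its groups overlapped through Rb-null 2, and TET-MYCN 4 was the highest (0.26 ± 0.13, adjusted p = 0.355). Pole, the catalytic subunit of the leading-strand polymerase epsilon, had 95.0, 119, 66.2 and 72.3 CPM across Rb-null 1 to 4, against 118, 126, 80.8 and 130.3 CPM across TET-MYCN 1 to 4. TET-MYCN 3 lay below Rb-null 1 and 2, and the difference was 0.37 ± 0.21 (adjusted p = 0.409). Pola1, which carries the catalytic site of polymerase alpha, had 86.2, 79.9, 58.5 and 59.0 CPM in Rb-null, against 82.1, 80.9, 76.6 and 79.2 CPM in TET-MYCN. The TET-MYCN libraries spanned only a narrow range, inside that of the Rb-null libraries (0.17 ± 0.14, adjusted p = 0.584). The primase subunits Prim1 and Prim2 and Pold1, the catalytic subunit of polymerase delta, lay between 0.18 and 0.22, with adjusted p of 0.510 to 0.568. Leaving out Rb-null 3, the median of the 6 went from 0.21 to 0.14, with 0.19 for Pola2, 0.25 for Pole, 0.086 for Pola1, 0.11 for Prim1, 0.12 for Prim2 and 0.15 for Pold1.

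The clamp and its loader had a median log2 fold change of 0.25, with 4 of 4 genes positive and 0 past the test. Pcna, the sliding clamp, was the most abundant of the 37 per length in all 8 libraries, at 396 ± 70.8 and 452 ± 122 CPM per kb in the Rb-null and TET-MYCN groups. Mouse has processed Pcna pseudogenes, so its counts are uncertain where reads fit a copy equally well. It had 644, 674, 441 and 645 CPM across Rb-null 1 to 4, against 515, 648, 951 and 634 CPM across TET-MYCN 1 to 4. Rb-null 3 was low and TET-MYCN 3 high, while the other 6 libraries lay between 515 and 674 CPM (0.19 ± 0.20, adjusted p = 0.696); without TET-MYCN 3 the value was -0.0050. Rfc5, a loader subunit, had 50.7, 53.0, 38.1 and 46.1 CPM across Rb-null 1 to 4, against 58.3, 51.3, 66.0 and 61.7 CPM across TET-MYCN 1 to 4. Its groups overlapped only through Rb-null 2, which lay above TET-MYCN 2 (0.34 ± 0.13, adjusted p = 0.254). Rfc4 had 32.7, 32.6, 22.6 and 32.1 CPM in Rb-null, against 36.0, 32.4, 50.9 and 30.4 CPM in TET-MYCN. Again Rb-null 3 and TET-MYCN 3 marked the ends (0.32 ± 0.18, adjusted p = 0.430), and Rfc3 followed with 0.18 ± 0.18 (adjusted p = 0.658). Without Rb-null 3 the median of the 4 was 0.14, with 0.070 for Pcna, 0.25 for Rfc5, 0.20 for Rfc4 and 0.085 for Rfc3, and without TET-MYCN 3 it was 0.064 with 2 of 4 positive.

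Genes that cover single strands and join Okazaki fragments were all positive, from 0.16 to 0.20, and 0 of 3 passed the test. Lig1, the replicative DNA ligase, had 239, 243, 173 and 194 CPM across Rb-null 1 to 4, against 215, 237, 245 and 278 CPM across TET-MYCN 1 to 4 (0.20 ± 0.13, adjusted p = 0.503). Fen1, the flap nuclease that trims fragments, had 92.0, 102, 67.1 and 85.5 CPM in Rb-null, against 87.7, 84.7, 116 and 109 CPM in TET-MYCN (0.20 ± 0.15, adjusted p = 0.557). Rpa2, a subunit of the single-strand binding protein RPA, had 112, 116, 77.2 and 95.2 CPM in Rb-null, against 91.1, 101, 141 and 116 CPM in TET-MYCN (0.16 ± 0.17, adjusted p = 0.690). In all 3 genes the groups overlapped, with Rb-null 1 and 2 inside the TET-MYCN range and Rb-null 3 below it. Without Rb-null 3 the log2 fold changes were 0.11 for Lig1, 0.093 for Fen1 and 0.055 for Rpa2, and the median was 0.093 in place of 0.20. Without TET-MYCN 3 the median was 0.11.

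Nucleotide supply held both the largest difference of the 37 and a value near 0. Tk1, the thymidine kinase of S phase, had 36.1, 45.6, 20.6 and 33.6 CPM across Rb-null 1 to 4, against 44.6, 39.7, 54.3 and 64.9 CPM across TET-MYCN 1 to 4. Its groups overlapped because Rb-null 2 exceeded TET-MYCN 1 and 2, and TET-MYCN 4 was the highest (0.58 ± 0.23, adjusted p = 0.275). Rrm1, the large subunit of ribonucleotide reductase, had 255, 263, 156 and 191 CPM in Rb-null, against 244, 250.1, 278 and 276 CPM in TET-MYCN (0.28 ± 0.16, adjusted p = 0.440). The small subunit Rrm2 had 346, 406, 153 and 295 CPM in Rb-null, against 229.8, 308, 429.9 and 271 CPM in TET-MYCN. Rrm2 spread widely within both groups, with Rb-null 2 above all TET-MYCN libraries but the third, and differed by 0.05 ± 0.28 (adjusted p = 0.958). With Rb-null 3 left out the values were 0.40 for Tk1, 0.15 for Rrm1 and -0.17 for Rrm2. Rrm2 was above Rrm1 per length in all 8 libraries.

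Genes of S-phase entry and control had the lowest median of the 8 roles, 0.08, with 3 of 4 positive and 0 past the test. Ccne1, a cyclin E that drives CDK2 into S phase, had 77.6, 88.9, 40.2 and 68.3 CPM across Rb-null 1 to 4, against 61.3, 75.6, 106 and 83.2 CPM across TET-MYCN 1 to 4. TET-MYCN 1 lay below 3 of the Rb-null libraries (0.25 ± 0.24, adjusted p = 0.658). Dtl, the CRL4 adaptor that sends Cdt1 for destruction in S phase, had 133, 142, 72.7 and 104 CPM in Rb-null, against 111, 124, 137 and 125 CPM in TET-MYCN, with Rb-null 1 and 2 among the highest (0.14 ± 0.19, adjusted p = 0.779). Slbp, which binds the stem-loop of replication-dependent histone mRNAs, had 206, 230.1, 118 and 208 CPM in Rb-null, against 143, 195, 279 and 161 CPM in TET-MYCN. TET-MYCN 1 and 4 lay below Rb-null 1, 2 and 4, and TET-MYCN 3 above all (0.03 ± 0.25, adjusted p = 0.971). Ccne2, the second cyclin E gene, was the only negative value of the 37, at -0.07 ± 0.22 (adjusted p = 0.913), and ranged from 53.0 to 107 CPM in the Rb-null and 62.4 to 95.6 CPM with TET-MYCN. When Rb-null 3 was left out the values were 0.060 for Ccne1, -0.027 for Dtl, -0.14 for Slbp and -0.24 for Ccne2, so that only Ccne1 stayed above 0 and the median was -0.084. Without TET-MYCN 3 the median was -0.041 with 2 of 4 positive. Ccne1 exceeded Ccne2 per length in all 8 libraries.

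The subunits of chromatin assembly factor 1, which deposits histones behind the fork, were both positive. Chaf1b had 53.5, 53.9, 35.8 and 44.7 CPM across Rb-null 1 to 4, against 61.7, 51.5, 66.7 and 73.9 CPM across TET-MYCN 1 to 4. Only Rb-null 1 and 2 reached above the lowest TET-MYCN library, and the difference was 0.43 ± 0.16 (adjusted p = 0.241). Chaf1a had 84.3, 93.7, 62.9 and 67.3 CPM in Rb-null, against 87.8, 85.5, 77.3 and 122 CPM in TET-MYCN, with TET-MYCN 4 clear of the rest and TET-MYCN 3 below Rb-null 1 and 2 (0.27 ± 0.17, adjusted p = 0.466). Leaving out Rb-null 3 gave 0.32 for Chaf1b and 0.19 for Chaf1a.

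The repair and chromosome genes had the highest median of the 8 roles, 0.37, all 4 positive and 0 past the test. Msh6, which recognizes mismatches left by the fork, had 97.8, 103, 85.9 and 85.7 CPM across Rb-null 1 to 4, against 120.4, 111, 104 and 123 CPM across TET-MYCN 1 to 4. Its groups did not overlap, though TET-MYCN 3 and Rb-null 2 nearly met, and it had the smallest p of the 37 (0.30 ± 0.10, adjusted p = 0.223). Exo1, the exonuclease of mismatch repair, had 27.6, 33.7, 18.0 and 19.7 CPM in Rb-null, against 32.8, 28.9, 32.0 and 39.8 CPM in TET-MYCN, with Rb-null 2 inside the TET-MYCN range (0.43 ± 0.20, adjusted p = 0.328). Smc2, a condensin subunit that compacts chromosomes, had 111, 115, 58.3 and 77.6 CPM in Rb-null, against 116, 124, 109 and 119.9 CPM in TET-MYCN. The TET-MYCN libraries and Rb-null 1 and 2 lay within a narrow band, and Rb-null 3 and 4 below it (0.38 ± 0.19, adjusted p = 0.375). Fanci, of the Fanconi anaemia crosslink repair pathway, was the least abundant of the 37 per length, at 2.29 ± 0.504 and 2.96 ± 0.381 CPM per kb in Rb-null and TET-MYCN (log2 fold change 0.36 ± 0.18, adjusted p = 0.356). Without Rb-null 3 the median of the 4 was 0.26, with 0.26 for Msh6, 0.31 for Exo1, 0.21 for Smc2 and 0.25 for Fanci.

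**Figure D5:**
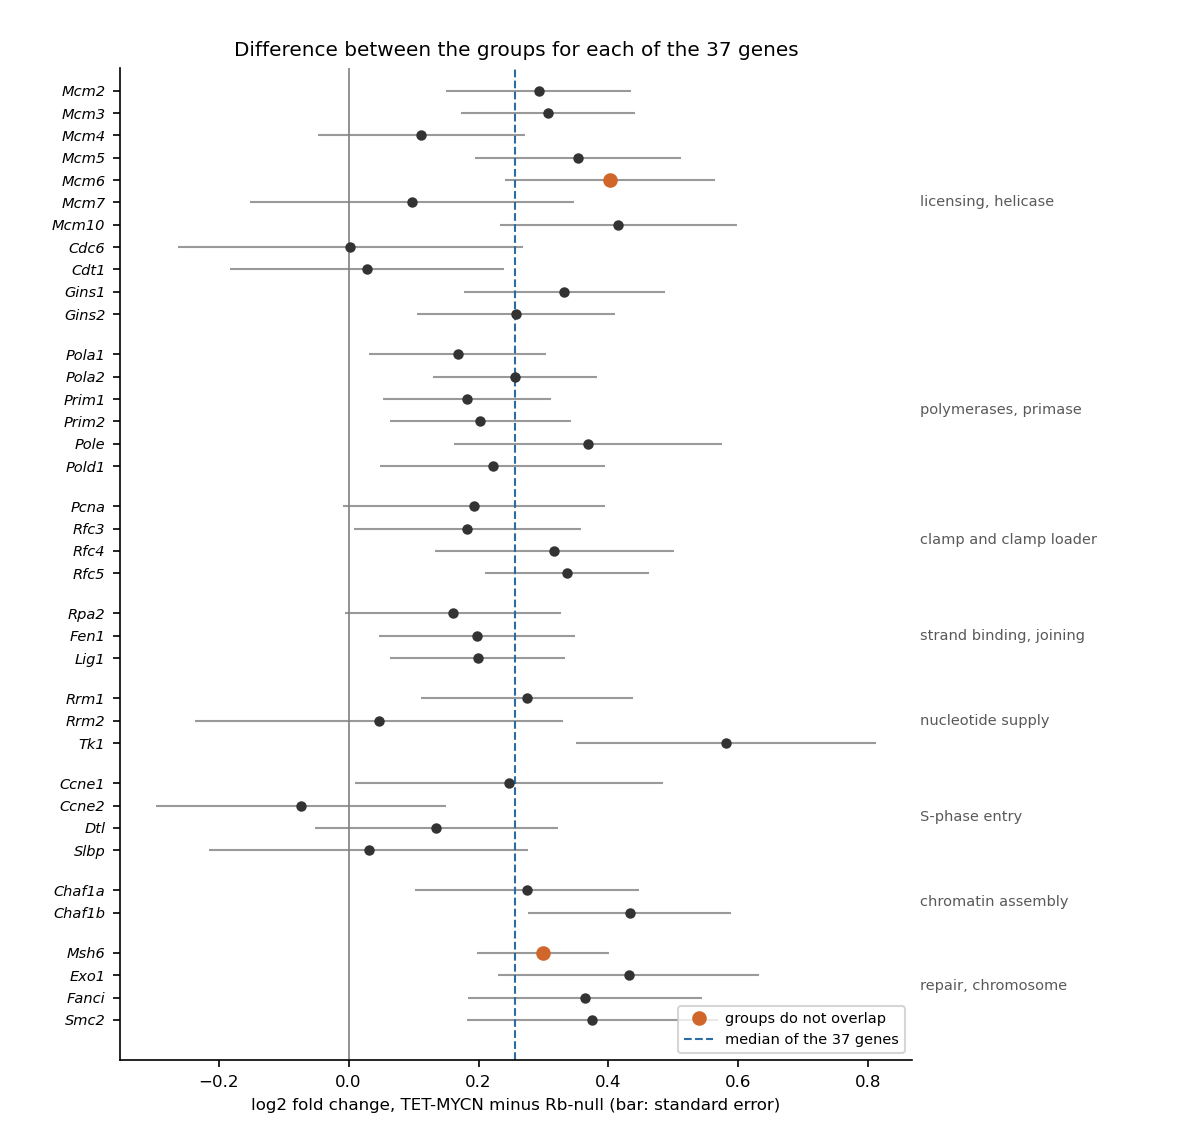
Log2 fold change between TET-MYCN and Rb-null libraries (horizontal axis, bars are standard errors) for each of the 37 genes (vertical axis, by role). Orange marks Mcm6 and Msh6, whose groups did not overlap, and the dashed line is the median of 0.26. Ccne2 at -0.07 is the only value below 0.

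The TET-MYCN libraries differed among themselves in a pattern that followed transcript length. TET-MYCN 3 was the highest of its group for 19 of the 37 genes, among them Pcna, Slbp, Rrm2 and all 3 loader subunits, with a median transcript length of 2.19 kb. It was the lowest of its group for 6 genes, Pola1, Pole, Chaf1a, Msh6, Fanci and Smc2, whose median length was 5.38 kb. TET-MYCN 4 was the highest for 14 genes, including Mcm2, Mcm3, Mcm5, Pold1, Tk1 and both Chaf1 subunits. Across the 37 genes, Spearman's rho between length and the deviation of TET-MYCN 3 from the other 3 of its group was -0.73, and across all 13650 tested genes with a length it was -0.58. The same values were -0.74 and -0.46 for Rb-null 4, and 0.02 to 0.50 and 0.08 to 0.46 for the other 6 libraries. These are descriptions across genes, which share libraries and are not replicates, and the lengths come from GENCODE M21. Within a group the deviations sum to 0 for each gene, so the rho values of its libraries depend on each other. TET-MYCN 3 also had the smallest share of reads outside genes, 15.1% against 17.7% to 19.7% in the other 7 libraries, and the largest share aligned to several places, 12.8% against 9.05% to 11.7%. The part of this skew in the difference between groups was not tested. In a fit without TET-MYCN 3 and Rb-null 4, chosen after seeing the data, the median of the 37 was 0.16 with 31 positive, and 0 passed the test. In that fit 1 of the 37 was higher at an unadjusted p under 0.05, against 9.30% of all genes, and 4 had groups that did not overlap (Mcm6, Msh6, Fanci and Smc2), against 12.7%.

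Within the Rb-null group these genes varied more than most. The SD of log2 CPM was larger in the Rb-null than in the TET-MYCN libraries for 25 of the 37 genes, against 30.0% of all genes tested. The median SD was 0.29 and 0.23 in these groups for the 37 genes, and 0.17 and 0.25 for all genes. Per gene, the highest Rb-null library was 1.20 to 2.65 times the lowest, and the highest TET-MYCN library 1.07 to 1.96 times the lowest. The log2 level of Rb-null 3 minus the mean of the other 3 Rb-null libraries had a median of -0.50 over the 37 genes. The TET-MYCN mean minus the mean of those 3 had a median of 0.16.

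Other genes of the pathway, 87 of them listed by role, had a smaller median. Of these 79 were positive, against 52.2% of all genes, with a median of 0.18, and 0 passed the test. At an unadjusted p under 0.05, 7 were higher with TET-MYCN, against 8.06% of all genes tested. Groups did not overlap for 3, with TET-MYCN higher, against 4.36% of all genes. Among origin and fork genes 22 of 23 were positive. The smallest p-values there went with Mcmbp, an MCM-binding protein (0.27 ± 0.10), 5730590G19Rik, the older symbol of Ticrr, a factor for origin firing (0.55 ± 0.23), and Dbf4, the activator of the Cdc7 kinase (0.53 ± 0.24). Among other polymerase, clamp and fragment genes 18 of 19 were positive, led by Rnaseh2c (0.34 ± 0.12) and Rnaseh2b (0.31 ± 0.15), subunits of the nuclease that removes ribonucleotides from DNA, and the helicase gene Pif1 (0.65 ± 0.29). Nucleotide supply had 5 of 7 positive, with Tyms, the thymidylate synthase, at 39.0 ± 8.65 and 54.0 ± 6.25 CPM (0.47 ± 0.16), and the thymidylate kinase gene Dtymk (0.33 ± 0.12) and the dUTPase gene Dut (0.30 ± 0.17) next. The histone chaperone gene Nasp had 211 ± 46.4 and 288 ± 25.8 CPM with groups that did not overlap (0.45 ± 0.16), ahead of the histone chaperone Asf1a (0.20 ± 0.12) and Rbbp4 (0.20 ± 0.12), and all 8 chromatin assembly genes were positive. Of 30 repair and chromosome genes 26 were positive, with the cohesin gene Smc1a at 0.24 ± 0.12, the checkpoint kinase gene Chek1 at 0.24 ± 0.13 and the recombination gene Xrcc2 at 0.17 ± 0.10. Adjusted p of the genes named in this paragraph lay between 0.232 and 0.446. The median of the 87 was 0.10 without Rb-null 3, with 72 positive and 2 at an unadjusted p under 0.05, and 0.12 without TET-MYCN 3, with 70 positive. The count at an unadjusted p under 0.05 was 15 without Rb-null 2, 4 without Rb-null 4, 3 without TET-MYCN 1, 17 without TET-MYCN 3 and 4 without TET-MYCN 4. Over all genes, in either direction, that count was 1391 of 15258 without Rb-null 3, 2739 of 15279 without Rb-null 2 and 1579 of 15257 without Rb-null 4. It was 1784 of 15256 without TET-MYCN 1, 3647 of 15140 without TET-MYCN 3 and 1608 of 15129 without TET-MYCN 4. In the fit without TET-MYCN 3, 13.1% of all genes were higher at an unadjusted p under 0.05. Groups did not overlap for 15 of the 87 without Rb-null 2 (7.73% of all genes) and for 5, 7, 10 and 9 without TET-MYCN 1, 2, 3 and 4 (4.79%, 8.12%, 11.9% and 5.87%).

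Mitosis genes act later in the cycle. All 30 listed were positive, against 52.2% of all genes, with a median of 0.45, and 0 passed the test. At an unadjusted p under 0.05, 16 were higher with TET-MYCN, against 8.06% of all genes tested. Groups did not overlap for 8, with TET-MYCN higher, against 4.36% of all genes. Ube2c, the E2 enzyme of the anaphase-promoting complex, had 55.3 ± 9.14 CPM in the Rb-null and 90.9 ± 14.9 CPM with TET-MYCN (0.72 ± 0.15, adjusted p = 0.155). The phosphatase gene Cdc25c and the centromeric histone gene Cenpa followed at 0.69 ± 0.16 and 0.86 ± 0.21 (adjusted p = 0.158 and 0.164). Rb-null 3 was the lowest of all libraries for 29 of the 30. Without it the median was 0.30, with 28 positive and 10 at an unadjusted p under 0.05. That count was 9 without Rb-null 4 and 9 without TET-MYCN 4. Over all genes, in either direction, the counts in these fits were 1391 of 15258, 1579 of 15257 and 1608 of 15129. Groups did not overlap for 14 without Rb-null 2, against 7.73% of all genes. DESeq2 called 5 of the 30, where it called 530 of 15106 genes in all. Without TET-MYCN 2 edgeR called 1 of the 30, where it called 132 of 15166 genes in all. Whether the difference of the mitosis genes was larger than that of the replication genes was not tested.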

How the data were processed

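Counts of reads per gene were analysed for 8 RNA-seq libraries of mouse peripheral retina, 4 Rb-null and 4 TET-MYCN, grouped by their titles. The deposited files hold raw whole-number counts per gene symbol, without normalization. Per the submitters' processing notes, CASAVA 1.8.2, TopHat2 2.0.8b and HTSeq 0.5.4p3 were used with mouse build mm9. For annotation, options and strand, the setting is not given in the sources used here. Reads of overlapping or antisense genes cannot be told apart. Reads that the authors' files list outside single genes, 28.3% to 31.7% per library, stayed out of library sizes and tests.

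Counts were TMM-scaled and filtered with filterByExpr, and all 15106 genes kept were fitted with edgeR 4.0.16 (estimateDisp, robust glmQLFit, glmQLFTest, R 4.3.3) on group alone, with Benjamini-Hochberg adjustment at 0.05. Errors are the standard error for log2 fold changes and the SD over 4 libraries for CPM, which is counts scaled to a common library size. List means used log2 CPM with a prior count of 2. The procedure was tested on simulated counts. Genes were drawn independently there, so it does not bear on shifts that many genes of a library share. No pair of libraries within a group agreed within sampling noise. Lengths are of the longest coding transcript in GENCODE M21, found for all 37 genes and 90.4% of the genes tested. Other settings were another scaling, other filters, DESeq2 1.42.0, limma-voom (limma 3.58.1), the replicate number as a block, and leaving out each library.

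The genes, lists and tests were chosen with earlier results of these data known. Values by library are given for 23 genes: in each role the pair with the smallest unadjusted p and the gene with the largest. The other 14 are given by range, and of each further list up to 3 genes with the smallest p are named. Markers of 12 cell types of the retina and its neighbours were listed. Figures used Python 3.11.15 and matplotlib 3.10.9.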

Additional observations from a re-analysis of the deposited data

Results flagged for a closer look

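Among the 37 replication and S-phase repair genes, 3 values stood apart from the other 3 libraries of their group by Dixon's criterion for 4 samples, out of 74 sets of 4 examined. Chance alone flags about 1 in 20 such sets. Pcna had 441 CPM in Rb-null 3, against 644 to 674 CPM in the other Rb-null libraries. Rfc4 had 22.6 CPM in the same library, against 32.1 to 32.7 CPM in the others. In TET-MYCN 4, Pold1 stood at 183 CPM, while the other TET-MYCN libraries had 117 to 126 CPM.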

How the results depend on the processing

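None of the 37 genes passed the test under any of the 17 other settings, and no gene gained a call. The median of the 37 lay between 0.15 and 0.34. Of 296 values with 1 library left out 21 reversed, of 259 under the other planned settings 2, and of 74 under the settings added after seeing the data 9; the causes were not tested. The count of all genes called, 9 of 15106 with edgeR, was 17 without a filter, 530 with DESeq2, 0 by limma-voom (unadjusted p under 0.05 for 2262 genes, and for 2384 by edgeR), 0 without the lens-rich libraries Rb-null 2 and 3, and 0 to 230 with 1 library left out. With the replicate number as a block it was 3. Same-numbered libraries did not deviate together (r = -0.04, -0.06, -0.12 and -0.29), and no library correlated best with its own number. The main fit therefore used no pairing, though these correlations cannot exclude a shared litter or batch. Groups did not overlap for 2 of 37 genes, against 4.36% of all genes. That count was 1 with DESeq2's size factors (3.99% of all genes) and 1 with total counts (4.3%). It was 8 without the lens-rich pair (8.71%) and 4 without the length-skewed pair Rb-null 4 and TET-MYCN 3 (12.7%). With 1 library left out it was 1 to 8, against 4.78% to 11.9% of all genes.

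Cdc6 was -0.0041 with DESeq2's size factors and -0.0040 with DESeq2. Without the lens-rich pair Cdc6 was -0.024, Cdt1 -0.029, Rrm2 -0.048 and Slbp -0.090. Without the length-skewed pair Cdc6 was -0.16, Cdt1 -0.11, Mcm7 -0.0023, Rrm2 -0.17 and Slbp -0.16. With 1 library left out, log2 fold changes ran from -0.24 to 0.068 for Ccne2, -0.19 to 0.21 for Cdc6, -0.13 to 0.16 for Cdt1, -0.027 to 0.26 for Dtl, -0.017 to 0.25 for Mcm4, -0.11 to 0.30 for Mcm7, -0.0050 to 0.30 for Pcna, -0.0041 to 0.26 for Rfc3, -0.17 to 0.23 for Rrm2 and -0.20 to 0.15 for Slbp. The lowest count of any of the 37 genes in a library was 123, and the effect of read depth on these values was not tested.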
